A study of Bos taurus with 13 samples.

Results

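The genes described here mark platelets and megakaryocytes, and they were picked by name: *PF4*, *PPBP*, *ITGA2B*, *ITGB3*, *GP1BA*, *GP1BB*, *GP9*, *TUBB1* and *TREML1*. Of these 9 genes, 7 were matched by name among the 16095 named genes of the count tables, while *PF4* and *ITGB3* were not analysed here. Blood RNA of 13 lactating cows of the Italian Red Pied breed was counted, 7 from the upper tail of milk cortisol (high group, replicates 1 to 7) and 6 from the lower tail (low group, replicates 8 to 13). The cows came from a commercial farm, were clinically healthy when they were chosen and received no treatment, and the groups are set by the cortisol ranking only. Ages are not given here, and the cows are taken as separate animals from their sample titles. Other cows that the study selected were not used here. Whole blood was drawn from the tail vein into PAXgene tubes, so platelets, red cells and leukocytes share each library. A change in the number of platelets and a change in the RNA that each platelet holds cannot be told apart in such samples.

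Megakaryocytes are the large bone marrow cells that shed platelets, and platelets carry their RNA into the blood without a nucleus. At an injured vessel wall, the GPIb-IX complex (encoded by *GP1BA*, *GP1BB* and *GP9*) catches von Willebrand factor, and the fibrinogen receptor, an integrin whose alpha chain is encoded by *ITGA2B*, then links platelets to each other. Activated platelets release chemokines such as pro-platelet basic protein (*PPBP*) from their alpha granules and bring TREML1, a receptor stored in the same granules, to their surface. *TUBB1* encodes the beta tubulin of the microtubule ring that gives platelets their disc shape. Glucocorticoids such as cortisol act on many blood cells, and the comparison of the groups asks whether blood gene expression differs between cows of high and low milk cortisol.

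Named genes held 12198355 to 23709740 reads per cow in the high group and 11045599 to 28124575 in the low group, of which 3537 to 14766 fell on the 7 platelet genes. Levels are given in CPM, which relates the counts of a gene to the total of its library after scaling the libraries to each other (TMM). The level that a count of 0 would still allow, 3 counts, was 0.107 to 0.272 CPM, from counting error only. All 7 genes were counted in all 13 cows and passed the filter on low counts, which left 11033 genes to test. The summed level of the 7 genes ran from 226 to 508 CPM over the high cows, with a median of 322, and from 250 to 613 CPM over the low cows, with a median of 343. Markers of other blood cells were present beside them: summed over the matched markers, T cell genes (7 of 7) lay between 2290 and 4290 CPM and monocyte genes (6 of 6) between 367 and 940 CPM. Erythroid genes (11 of 15) had a higher range in the high group, 388 to 8004 CPM, than in the low group, 146 to 583 CPM. Neutrophil genes (6 of 9) summed to 3819 to 8421 CPM over the high cows, with a median of 5018, and to 5622 to 9770 CPM over the low cows, with a median of 6452, with replicate 2 as the only high cow above any low cow. The part of these other cells in the fold changes of the platelet genes was not tested, beyond the haemoglobin covariate. Endothelial genes (6 of 7), which a needle can bring from the vessel wall, summed to between 4.13 and 14.9 CPM, and 3 of these 6 passed the filter. *TIE1* had the highest median of them (7.07 CPM), while *CDH5*, *CLDN5* and *ROBO4* had 79, 20 and 14 counts over all 13 cows. No matched marker of any of these lists was at 0 in every cow.

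*TUBB1* had the highest CPM of the 7 genes. It had 115 CPM in the lowest, 183 CPM in the median and 263 CPM in the highest high cow, and 139, 181 and 314 CPM in the low cows. *ITGA2B* followed, with 71.6, 93.4 and 168 CPM in the high cows and 83.9, 119 and 179 CPM in the low cows. Both genes had the narrowest ranges among the 7, 2.72-fold for *TUBB1* and 2.50-fold for *ITGA2B* between the lowest and the highest cow, and the groups overlapped. Replicates 8 and 9 of the low group had the highest levels of both.

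*PPBP* and *TREML1*, which encode granule proteins, varied more. *PPBP* had 7.70, 16.9 and 31.8 CPM in the lowest, median and highest high cow and 7.36, 16.9 and 45.6 CPM in the low cows, a 6.19-fold range over all cows. *TREML1* had 9.33, 17.1 and 34.1 CPM in the high cows and 7.43, 20.2 and 63.7 CPM in the low cows, an 8.58-fold range. The 2 genes parted in the low group, where *PPBP* was highest in replicate 12 and *TREML1* in replicate 9. The groups overlapped for both genes.

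The genes of the GPIb-IX complex had the fewest counts. *GP9*, which encodes a small subunit of the complex, had 1.16, 4.53 and 9.10 CPM in the lowest, median and highest high cow and 1.46, 5.17 and 10.3 CPM in the low cows. *GP1BB*, the beta chain of GPIb, had 0.927, 1.61 and 2.36 CPM in the high cows and 1.35, 2.67 and 3.45 CPM in the low cows, from 16 to 76 counts. *GP1BA*, the alpha chain that binds von Willebrand factor, had 0.163, 1.09 and 1.80 CPM in the high cows and 0.439, 1.20 and 3.08 CPM in the low cows. With 2 to 67 counts per cow, *GP1BA* is the least precise of the 7 genes, and its lowest value, in replicate 3 of the high group, rests on 2 counts. The plot of the 7 genes by cow shows the spread within each group.

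**Figure D1:**
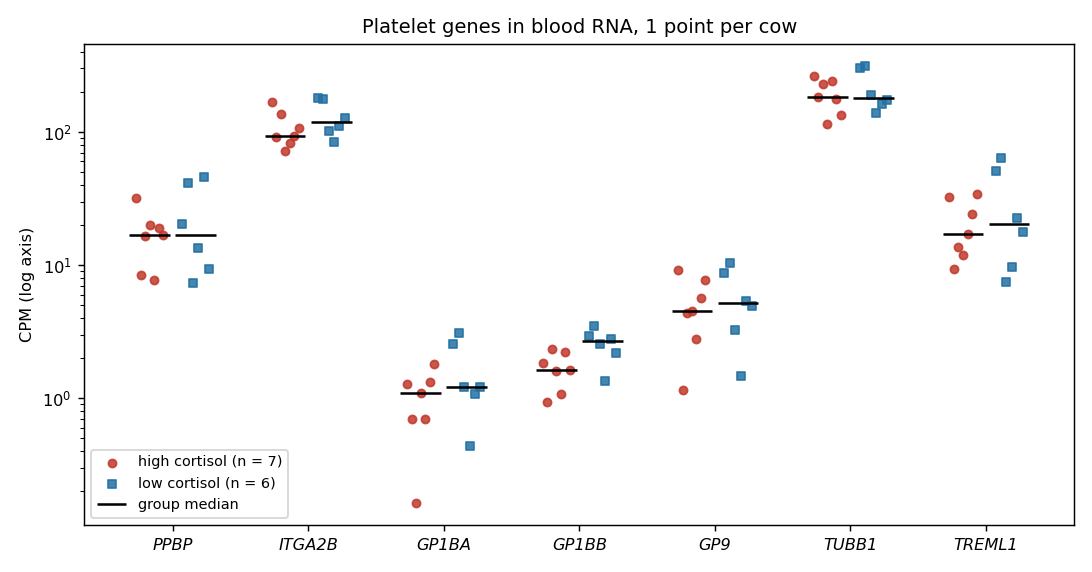
Level of each of the 7 platelet genes in CPM on a log axis, with 1 point per cow (circles, high group, n = 7, and squares, low group, n = 6) and a line at the median of each group. *TUBB1* lies between 115 and 314 CPM and *GP1BA* between 0.163 and 3.08 CPM, and the points of the groups overlap for all 7 genes.

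Levels of different genes were compared per length, as CPM per kilobase of the exons counted for each gene. On this scale the median over the 13 cows was 135 for *TUBB1*, 31.6 for *ITGA2B*, 20.1 for *PPBP*, 18.0 for *TREML1*, 8.88 for *GP9*, 3.57 for *GP1BB* and 0.616 for *GP1BA*. *TUBB1* lay above *ITGA2B* in 13 of 13 cows, and in 13 of 13 cows *TREML1* lay above *GP9*, *GP9* above *GP1BB* and *GP1BB* above *GP1BA*. *ITGA2B* lay above *PPBP* in 11 of 13 cows and *PPBP* above *TREML1* in 7 of 13, so *PPBP* and *TREML1* did not differ in level beyond their spread between cows. The 3 chains of the GPIb-IX complex thus had unequal levels per length, with *GP1BA* lowest in all 13 cows. The counted lengths of *PPBP* (840 bases), *GP1BA* (1953 bases), *GP1BB* (606 bases), *GP9* (555 bases) and *TUBB1* (1353 bases) are multiples of 3, as coding lengths are. Those of *ITGA2B* (3386 bases) and *TREML1* (983 bases) are not, so reads on untranslated ends may be counted for some genes and not for others. A length can also be a multiple of 3 by chance, so the lengths do not settle which genes have such ends counted.

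**Figure D2:**
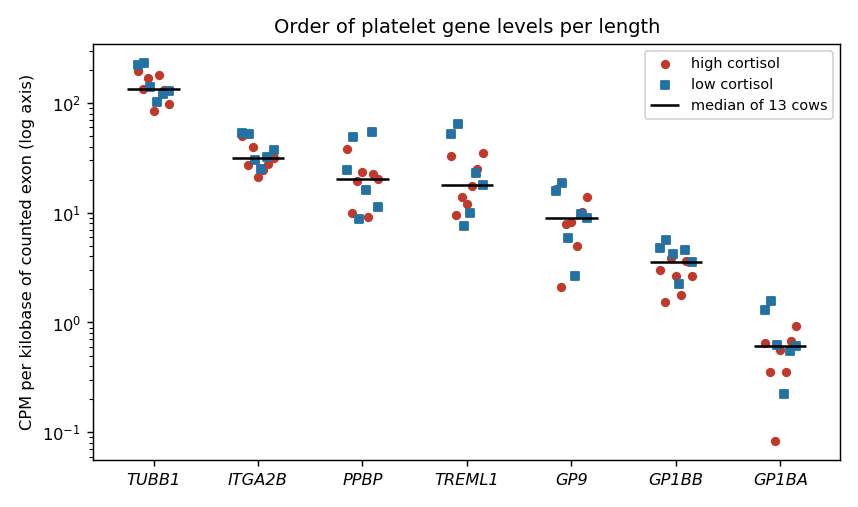
Level per kilobase of counted exon for the 7 platelet genes on a log axis, ordered by the median of 13 cows (black line), with 1 point per cow (circles, high group, and squares, low group). The medians run from 135 for *TUBB1* to 0.616 for *GP1BA*, and *PPBP* (20.1) and *TREML1* (18.0) overlap.

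The positions of these genes are from the count tables and refer to the UMD3.1 build of the cattle genome. *PPBP* lies on chromosome 6 from 90664368 to 90665675 in 3 exon intervals, *ITGA2B* on chromosome 19 from 44798081 to 44811145 in 30 and *TREML1* on chromosome 23 from 15081867 to 15086276 in 6. *TUBB1* lies on chromosome 13 from 57874077 to 57879042 in 4 exon intervals. *GP9*, on chromosome 22 from 59687612 to 59688166, and *GP1BA*, on chromosome 19 from 27094265 to 27096217, are each counted as 1 exon. *GP1BB*, on chromosome 17 from 74811513 to 74812320, is counted in 2 exon intervals on the same strand as *SEPT5*, a septin gene that ends 1048 bases before it and had 24.6 to 93.8 CPM. No counted exon of the 7 genes overlapped an exon of another entry. *SEPT5* and *GP1BB* showed no detected relation over the 13 cows (Pearson's r = 0.159, permutation p = 0.603, and Spearman's rho = 0.187, permutation p = 0.542), and without the 2 cows farthest from the median of *SEPT5* r was 0.441. The log2 fold change of *SEPT5* between the groups was -0.14 (SE 0.28, unadjusted p 0.628 and adjusted p 0.999, edgeR).

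The levels of the 7 genes were positively related from cow to cow, more closely for some pairs than for others. Pearson's r of log2 CPM was positive for all 21 pairs of genes over the 13 cows, from 0.202 to 0.841 with a median of 0.580, and Spearman's rho ran from 0.115 to 0.918. Without replicate 9 of the low group, 20 of 21 pairs were positive and the median r was 0.473. For *ITGA2B* and *GP1BA*, r was 0.415 over all cows and -0.010 without replicates 8 and 9 of the low group. After Benjamini-Hochberg adjustment over the 21 pairs, 10 pairs passed 0.05 with Pearson's r and 9 with Spearman's rho, of which 9 passed with both (two-sided permutation tests, 100000 resamples). Pairs drawn from all genes tested were not computed, so no such share stands beside these counts. *GP9* and *TREML1* were the closest pair (r = 0.841, permutation p = 0.00043, adjusted p = 0.00903, and rho = 0.918, permutation p = 2e-05, adjusted p = 0.00042). Their r was 0.879 without replicates 2 and 11, the cows farthest from the median of *GP9*, and it was 0.836 within the high group and 0.888 within the low group. *TUBB1* passed with *ITGA2B* alone by Pearson's r and with no gene by Spearman's rho. *PPBP* and *TUBB1* had the lowest r of the 21 pairs (r = 0.202, permutation p = 0.503, and rho = 0.115, permutation p = 0.708).

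Each pair was also computed without 2 cows, which narrows the range of the first gene and leaves 11 cows. Of the 10 pairs that passed with Pearson's r, 5 kept an unadjusted permutation p below 0.05 without the 2 cows farthest from the median of the first gene, and these were *GP9* with *TREML1*, and each of *PPBP* and *GP1BA* with *GP9* and with *TREML1*. The other 5 were the pairs of *ITGA2B* with *GP1BB*, *GP9*, *TUBB1* and *TREML1*, and the pair of *GP1BB* with *GP9*, and their r without the 2 cows was 0.471 to 0.591. For *ITGA2B* and *TUBB1*, r was 0.772 (permutation p = 0.00236, adjusted p = 0.0248) and rho 0.621 (permutation p = 0.0267, adjusted p = 0.0561), and without replicates 8 and 9 of the low group r was 0.591 (permutation p = 0.0557). Within the high group, which does not hold those cows, r of this pair was 0.613 (exact permutation p = 0.142). Within the high group the median r of the 21 pairs was 0.476, with 16 of 21 above 0, and within the low group it was 0.833, with 21 of 21 above 0. Whether the groups differ in these correlations was not tested.

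**Figure D3:**
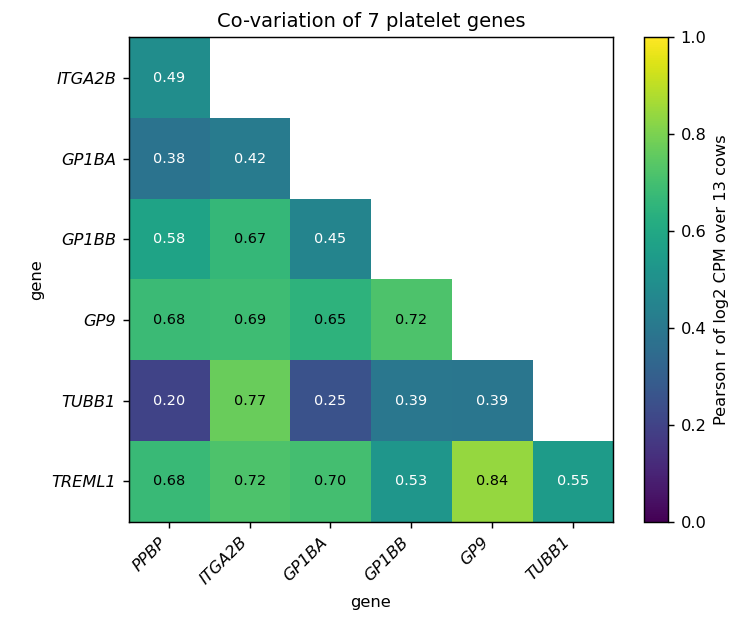
Pearson's r of log2 CPM over 13 cows for each of the 21 pairs of platelet genes, written in each square and shown by colour from 0 to 1. All 21 values are above 0, from 0.202 for *PPBP* with *TUBB1* to 0.841 for *GP9* with *TREML1*.

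The balance among the 7 genes differed between cows beyond counting error. *PPBP* made up 13.0% of the counts of the 7 genes in replicate 12 of the low group (exact binomial 95% confidence interval 12.0% to 14.1%) and 2.17% in replicate 5 of the high group (1.86% to 2.51%). *TUBB1* took the largest share in all cows, from 44.1% in replicate 7 (42.9% to 45.4%) to 68.5% in replicate 5 of the high group (67.4% to 69.5%). *TREML1* took 11.3% in replicate 7 of the high group (10.5% to 12.0%) and 2.38% in replicate 10 of the low group (1.97% to 2.84%). These intervals cover counting error only.

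The 7 genes were set beside the depth of the libraries and the summed markers of the 8 other cell types in 63 relations. Pearson's r lay between -0.481 and 0.433, and 0 of 63 passed a Benjamini-Hochberg adjusted p of 0.05 (smallest 0.983 with Pearson's r and 0.965 with Spearman's rho, permutation tests). At an unadjusted p below 0.05 there were 0 relations with Pearson's r and 1 with Spearman's rho, between *PPBP* and the T cell markers (r = -0.481, permutation p = 0.0973, and rho = -0.577, permutation p = 0.0427). Without the 2 cows farthest from the median of the T cell markers, r of this relation was -0.248. Other relations grew or turned in the same check. For *GP1BB* and depth, r was -0.443 (permutation p = 0.131), and -0.670 (unadjusted permutation p = 0.024) without low replicates 8 and 12. For *GP1BA* and the eosinophil markers, r was -0.285, and 0.630 (unadjusted permutation p = 0.0365) without high replicates 2 and 3. The part of depth in the fold change of *GP1BB* was not tested. With 13 cows and 63 relations, relations of the size seen here did not pass, so an absence of relations is not shown.

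To see which other genes varied like the platelet genes, the log2 CPM of each cow was centred on the mean of each gene and averaged over the 7 genes. This average was lowest in high replicates 2 (-0.83) and 5 (-0.49) and low replicate 11 (-0.76), and highest in low replicates 8 (0.81) and 9 (1.11) and high replicate 1 (0.55). The other 11026 genes tested were ranked by Pearson's r with it over the 13 cows, as a description. The median r of all these genes was -0.00402, and 5% of them had an r above 0.361.

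The 10 genes most like the platelet genes were *GP5*, *SOD3*, *MPIG6B*, *PLXNB3*, *F11R*, *ENDOD1*, *CDCA7L*, *MTURN*, *ECM1* and *SELP*, with r from 0.891 to 0.736. Without replicates 8 and 9 of the low group, r of these genes ran from 0.897 for *GP5* to 0.333 for *SELP*. It was then 0.575 for *MTURN*, 0.561 for *ENDOD1* and 0.521 for *ECM1*. *GP5* (r = 0.891, rho = 0.896) encodes glycoprotein V, which associates with the GPIb-IX complex on platelets. Its level was 0.116 to 3.23 CPM in the high cows and 0.403 to 3.00 CPM in the low cows, from 2 to 69 counts. *MPIG6B* (r = 0.830), an inhibitory receptor of megakaryocytes and platelets, had 216 to 894 CPM in the high cows and 346 to 861 CPM in the low cows. *SELP* (r = 0.736, rho = 0.555) encodes P-selectin, the alpha granule protein that binds leukocytes once platelets are activated, and without replicates 8 and 9 of the low group its r was 0.333. *F11R* (r = 0.810) encodes a junctional adhesion molecule that platelets carry, and had 27.7 to 85.9 CPM in the high cows and 40.8 to 111 CPM in the low cows. *SOD3* (r = 0.837), the extracellular superoxide dismutase, rests on 0 to 89 counts per cow. The map of centred levels shows replicate 9 of the low group among the highest cows for each of the 10 genes. *CDCA7L* varied little (30.4 to 52.0 CPM over all cows).

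**Figure D4:**
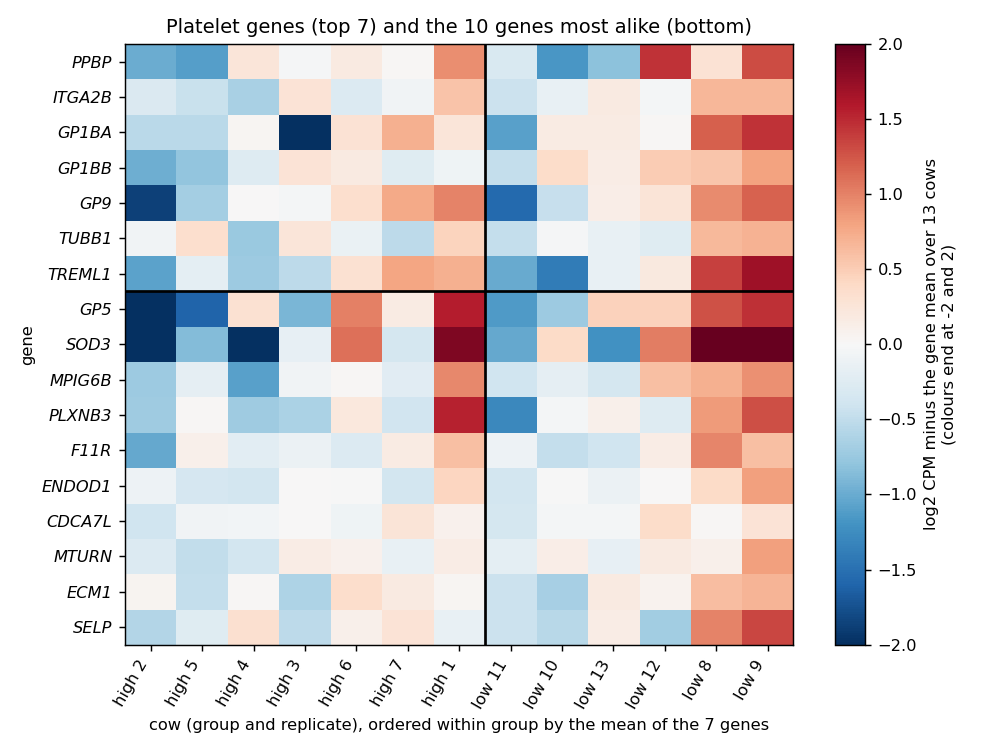
Log2 CPM of the 7 platelet genes (top) and the 10 genes most like them (bottom), minus the mean of each gene over 13 cows, with red for higher and blue for lower levels and colours ending at -2 and 2. Columns are cows, ordered within the high group (left) and the low group (right) by the mean of the 7 genes, from -0.83 to 0.55 and from -0.76 to 1.11.

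Other platelet and megakaryocyte genes were taken from a list of 54, of which 49 were matched and 44 had enough counts to be tested. Among these, 12 of 44 lay above 0.361, the r that 5% of all genes exceeded, and the median r was 0.0430. Surface receptors had 6 of 14 above it (*GP5*, *MPIG6B* and *SELP* among them), and signalling, enzyme and cytoskeleton genes had 4 of 11, with *PTGS1*, the cyclooxygenase that makes the precursor of thromboxane, at r = 0.663. Granule cargo had 2 of 9, with *VWF*, von Willebrand factor, at r = 0.710. Transcription factors of the megakaryocyte lineage had 0 of 10, with r from -0.244 for *GATA2* to 0.198 for *MEIS1*. Of the genes with the highest median CPM in their role, *F13A1*, a coagulation factor subunit also made by monocytes, had an r of -0.0417, *BIN2* of -0.150 and *TUBA4A* of 0.392.

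Between the groups, 0 of the 7 platelet genes passed an adjusted p of 0.05 with edgeR's quasi-likelihood test, as did 0% of all 11033 genes tested (smallest adjusted p 0.999). DESeq2 and limma-voom also called 0 of the 7, beside 1 of 14346 and 0 of 11033 genes tested. At an unadjusted p below 0.05 there was 1 of 7, *GP1BB*, beside 2.09% of all genes tested (1.16% counting those lower in the high group). The log2 fold change, high minus low, was negative for 7 of 7 genes, from -0.64 to -0.15 with a median of -0.41 (-0.17 with limma-voom and -0.16 without replicate 9 of the low group), beside 46.7% of all genes tested and a median of 0.013 over them. The levels of these genes are related across cows, so their common sign is not 7 separate observations. The CPM of the groups overlapped for 7 of 7 genes, and the groups did not overlap for 0.0272% of all genes tested.

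*GP1BB* averaged 1.66 CPM ± 0.531 (SD) over the 7 high cows and 2.54 CPM ± 0.719 (SD) over the 6 low cows. The level of each of the 7 high cows was under the low median of 2.67 CPM. In edgeR the log2 fold change was -0.61 (SE 0.28, 95% interval -1.20 to -0.025, unadjusted p 0.0420 and adjusted p 0.999, edgeR). An exact two-sided permutation test on its log2 CPM, with all 1716 divisions of the 13 cows, gave p = 0.0425 (smallest possible 5.8e-04). The unadjusted p of *GP1BB* was 0.0531 with limma-voom and 0.0505 with upper-quartile factors, and it was 0.109 with the haemoglobin share of counts as a covariate, where its log2 fold change was -0.65. Haemoglobin genes took 0.0282% to 0.815% of the counts in the high group and 0.0114% to 0.0552% in the low group. This share was taken over *HBB*, *HBG*, *HBM* and *HBQ1*, and *HBA* and *HBA1* were not part of it.

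The other chains of the complex gave wider intervals. *GP1BA* averaged 1.00 CPM ± 0.533 (SD) over the 7 high cows and 1.60 CPM ± 1.00 (SD) over the 6 low cows, and edgeR estimated the log2 fold change at -0.64 (SE 0.46, interval -1.61 to 0.33, unadjusted p 0.183, edgeR). Removing low replicate 8 or 9 gave -0.42 or -0.36 for *GP1BA*. *GP9* averaged 5.04 CPM ± 2.73 (SD) over the 7 high cows and 5.68 CPM ± 3.32 (SD) over the 6 low cows, and edgeR estimated the log2 fold change at -0.16 (SE 0.44, interval -1.10 to 0.77, unadjusted p 0.714, edgeR). The sign for *GP9* turned when replicate 2 of the high group (0.018) was left out, and when replicate 8 (0.021) or 9 (0.086) of the low group was.

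For the fibrinogen receptor chain and the tubulin the intervals were narrower. *ITGA2B* averaged 107 CPM ± 33.7 (SD) over the 7 high cows and 130 CPM ± 39.9 (SD) over the 6 low cows, and edgeR estimated the log2 fold change at -0.28 (SE 0.21, interval -0.73 to 0.17, unadjusted p 0.207, edgeR). Without replicate 1 of the high group, the high cow with the most *ITGA2B*, the log2 fold change was -0.42 (unadjusted p 0.0480, edgeR), and it was -0.16 (unadjusted p 0.481) without replicate 8 and -0.17 (unadjusted p 0.447) without replicate 9 of the low group. *TUBB1* averaged 192 CPM ± 55.7 (SD) over the 7 high cows and 213 CPM ± 74.9 (SD) over the 6 low cows, and edgeR estimated the log2 fold change at -0.15 (SE 0.22, interval -0.62 to 0.32, unadjusted p 0.505, edgeR). For *TUBB1* it was -0.023 and -0.0089 when low replicate 8 or 9 was removed, -0.060 and -0.081 when high replicate 4 or 7 was, and -0.035 with the haemoglobin covariate.

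The granule genes differed by less than the spread between cows. *PPBP* averaged 17.2 CPM ± 8.10 (SD) over the 7 high cows and 22.9 CPM ± 16.6 (SD) over the 6 low cows, with nearly equal medians of 16.9 CPM. In edgeR the log2 fold change was -0.41 (SE 0.42, interval -1.30 to 0.48, unadjusted p 0.342, edgeR), and it was -0.095 when low replicate 12 was removed and -0.16 when low replicate 9 was. *TREML1* averaged 20.4 CPM ± 9.95 (SD) over the 7 high cows and 28.7 CPM ± 23.2 (SD) over the 6 low cows, and edgeR estimated the log2 fold change at -0.49 (SE 0.46, interval -1.47 to 0.49, unadjusted p 0.303, edgeR). Without replicate 9 of the low group it was -0.092.

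The 7 genes differed in their spread between cows. The SD of log2 CPM over the 13 cows was 0.44 for *ITGA2B*, 0.45 for *TUBB1* and 0.53 for *GP1BB*, and between 0.87 and 0.96 for the other 4 genes, beside a median of 0.31 over all genes tested.

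**Figure D5:**
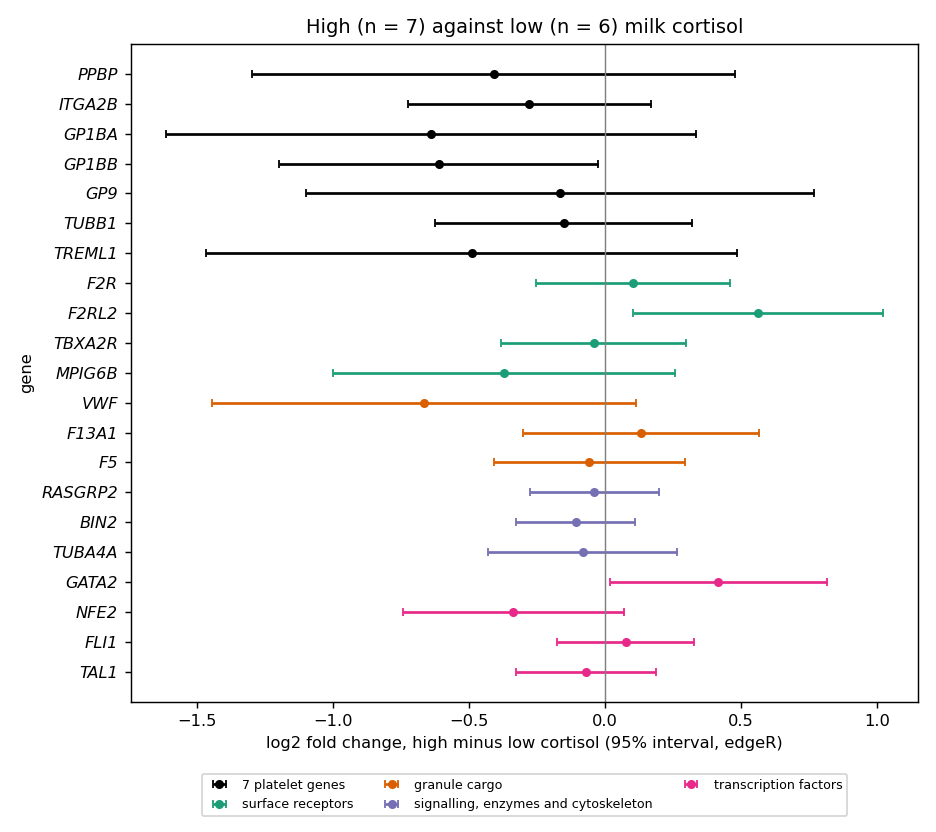
Log2 fold change, high (n = 7) minus low (n = 6) group, with its 95% interval from edgeR's fit, for the 7 platelet genes (black) and for genes of the wider list named by role (colours). All 7 platelet genes lie below 0, from -0.64 to -0.15, and only *GP1BB* among them has an interval that leaves out 0, as *F2RL2* and *GATA2* have above 0.

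In the wider list, 0 of 44 genes passed an adjusted p of 0.05, and 2 of 44 (4.55%) had an unadjusted p below 0.05, beside 2.09% of all genes tested. Both were higher in the high group, and 0.934% of all genes tested were higher there with an unadjusted p below 0.05. The median log2 fold change of the 44 genes was -0.050, with 24 below 0 and 20 above, beside 46.7% of all genes tested below 0. *F2RL2*, a thrombin receptor of the protease-activated family, had 5.71, 8.98 and 15.5 CPM in the lowest, median and highest high cow and 5.23, 6.41 and 8.19 CPM in the low cows. In edgeR the log2 fold change was 0.56 (SE 0.22, interval 0.10 to 1.02, unadjusted p 0.0195, edgeR). *GATA2*, a transcription factor of blood stem cells and early megakaryocytes that basophils and mast cells also express, had 11.7, 14.0 and 25.2 CPM in the high cows and 8.90, 12.3 and 15.5 CPM in the low cows. In edgeR the log2 fold change was 0.42 (SE 0.19, interval 0.019 to 0.82, unadjusted p 0.0411, edgeR). The unadjusted p of *GATA2* was above 0.05 when high replicate 2, 3 or 5 or low replicate 11, 12 or 13 was removed, and with the haemoglobin covariate. Neither gene varied like the 7 platelet genes (r = -0.0644 for *F2RL2* and -0.244 for *GATA2*).

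Of the surface receptors, 9 of 14 had a log2 fold change below 0 and 5 above (median -0.085), beside 46.7% of all genes tested below 0. The highest median CPM was that of *MPIG6B*, *TBXA2R*, the thromboxane receptor, and *F2R*, the main thrombin receptor of human platelets. Their log2 fold changes were -0.37 (unadjusted p 0.228), -0.042 (unadjusted p 0.796) and 0.10 (unadjusted p 0.547, edgeR). Of the granule cargo genes, 3 of 9 were below 0 and 6 above. *VWF* had 9.83, 29.2 and 76.0 CPM in the lowest, median and highest high cow and 27.2, 45.3 and 96.6 CPM in the low cows, and edgeR estimated the log2 fold change at -0.66 (SE 0.37, unadjusted p 0.0900, edgeR). The log2 fold changes of *F13A1* and of *F5*, coagulation factor V, were 0.13 (unadjusted p 0.524) and -0.057 (unadjusted p 0.734, edgeR).

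Of the signalling, enzyme and cytoskeleton genes, 8 of 11 had a log2 fold change below 0, beside 46.7% of all genes tested. At an unadjusted p below 0.05 there were 0 of 11, beside 2.09% of all genes tested (edgeR). *BIN2*, a membrane-shaping protein of blood cells, *RASGRP2*, the exchange factor that leads to integrin activation, and *TUBA4A*, an alpha tubulin, had the highest median CPM. Their log2 fold changes were -0.11 (unadjusted p 0.317), -0.039 (unadjusted p 0.734) and -0.082 (unadjusted p 0.625, edgeR). Of the transcription factors, 4 of 10 were below 0. *NFE2*, which controls the release of platelets and is also high in neutrophils and red cell precursors, had a log2 fold change of -0.34 (unadjusted p 0.0974), *FLI1* of 0.077 (unadjusted p 0.530) and *TAL1* of -0.069 (unadjusted p 0.577, edgeR).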

How the data were processed

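The authors deposited raw counts, the number of reads per gene name, for 13 cows. The file headers name featureCounts 1.4.6-p3 with exons summed by gene name over Ensembl 88 models of UMD3.1, and no option for strand. Per the submitters' processing notes and the methods, STAR 2.7.3, Subread 1.6.5 and ARS-UCD1.2 were used, which differs from the headers. Alignments in the headers carry animal numbers that differ from those in the table names, so the group of a cow rests on the sample title. Genes without a name share 1 entry, 13.9% to 16.7% of the counts, which was left out. No 2 libraries were identical.

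CPM and log2 CPM (prior count 2) follow TMM. Groups were compared without covariates by edgeR 4.0.16 in R 4.3.3 (robust quasi-likelihood, filterByExpr with minimum count 10 and total 15, Benjamini-Hochberg), on simulated counts first. A standard error is the log2 fold change over the square root of F. Alternatives were DESeq2 1.42.0, limma-voom 3.58.1, RLE and upper-quartile factors, other filters, haemoglobin genes removed, their share as covariate, an edgeR fit without robust estimation, and removal of each cow in turn. The exact permutation tests over single genes were added after the data were seen. Correlations have 100000 permutations.

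The members and lists were chosen with earlier results of these data known. Named are all members, in each role of the wider list the 3 genes with the highest median CPM and those at an unadjusted p below 0.05, the 10 genes with the highest r, and *SEPT5*. Other genes named were chosen after their values were seen.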

Additional observations from a re-analysis of the deposited data

Results flagged for a closer look

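Dixon's test set the highest and the lowest cow of each group against its nearest neighbour for 43 measures in both groups, and 11 of 172 comparisons lay beyond the 95% limit. Chance flags about 1 in 20 groups, which is 4.3 flags over the 86 groups of values compared (1 measure in 1 cortisol group each). Several of the measures are related across cows, so the 11 flags are not separate observations. Replicate 1 of the high group stood above its group for several genes that varied like the platelet genes. It had 894 CPM of *MPIG6B* (216 to 462 CPM in the other high cows), 5.91 CPM of *PLXNB3* (1.15 to 2.27 CPM), 151 CPM of *ENDOD1* (86.6 to 113 CPM) and 37.1 CPM of *SLC6A4* (8.47 to 11.1 CPM). It also had 80.7 CPM of *TAL1*, beside 50.2 to 63.2 CPM. Replicate 9 of the low group, the cow with the highest mean of the 7 platelet genes, had 229 CPM of *MTURN*, beside 113 to 147 CPM in the other low cows. *FLI1* reached 116 CPM in replicate 4 of the high group, beside 66.6 to 83.9 CPM.

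None of the 7 platelet genes passed this limit in either group. Among the other cell types, the erythroid markers summed to 8004 CPM in replicate 7 of the high group (388 to 2821 CPM in the other high cows), and haemoglobin genes took 0.815% of its counts (0.0282% to 0.262%). The neutrophil markers summed to 8421 CPM in replicate 2 of the high group (3819 to 5584 CPM in the other high cows) and to 9770 CPM in replicate 8 of the low group (5622 to 6907 CPM in the other low cows). Replicate 2 had the lowest mean of the platelet genes, while replicate 8 had the second highest.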

How the results depend on the processing

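The number of platelet genes called stayed at 0 in all 22 alternatives. Over all genes tested, DESeq2 called 1 of 14346, and each of the other alternatives called 0. The median log2 fold change of the 7 genes stayed below 0 in all 22 (-0.63 to -0.16, with -0.17 for limma-voom). The number at an unadjusted p below 0.05 was 0 with limma-voom, with upper-quartile factors and with the haemoglobin covariate, and 0 to 2 with 1 cow left out. Leaving out high replicate 2, 4, 5 or 7, or low replicate 8, 9, 10 or 12, put *GP1BB* above 0.05, and leaving out high replicate 1 added *ITGA2B*. The log2 fold change of *GP1BB* lay between -0.75 and -0.50 with 1 cow left out (unadjusted p 0.0141 to 0.103, edgeR). *GP9* reached 0.018, 0.021 and 0.086 without replicates 2, 8 and 9, with -0.37 as its lowest value when 1 cow was left out. In the wider list, the number at an unadjusted p below 0.05 was 1 with the haemoglobin covariate (*F2RL2*) and 1 to 4 with 1 cow left out, 4 when high replicate 1 or 2 was removed and 1 when high replicate 5 or low replicate 13 was. With at least 10 counts in every cow, *GP1BA* was not tested. Over all genes, 231 had an unadjusted p below 0.05 with edgeR, 414 without a filter, 348 with DESeq2, 120 with the haemoglobin covariate, and 373 and 363 when high replicates 2 and 5 were removed. The cause of these changes was not tested. The median Pearson's r of the 21 pairs lay between 0.473 and 0.683 with 1 cow left out. It lay between 0.579 and 0.619 with other scaling factors or prior counts, or without haemoglobin genes. The median Spearman's rho was 0.538. No paired analysis was possible because the groups share no replicate number. All 7 genes passed the filter, so the exact test planned for genes below it had no gene to use. Depth limits *GP1BA* most, with 305 counts over 13 cows.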

Other observations

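The serotonin transporter *SLC6A4*, through which platelets load the serotonin of their dense granules, was next in rank after the 10 genes most like the platelet genes (r = 0.735, rho = 0.758, and 0.641 without replicates 8 and 9 of the low group). It was chosen after its values were seen. Its level was 8.47, 9.66 and 37.1 CPM in the lowest, median and highest high cow and 10.1, 13.0 and 24.3 CPM in the low cows, and edgeR estimated its log2 fold change at -0.092 (SE 0.34, unadjusted p 0.790).

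*IL-8*, which encodes a chemokine that draws neutrophils, was also among the 25 genes most alike (r = 0.726, and 0.393 without replicates 8 and 9 of the low group). It was chosen after its values were seen. Its level was 6.10, 11.5 and 25.2 CPM in the high cows and 9.01, 9.96 and 43.1 CPM in the low cows, and edgeR estimated its log2 fold change at -0.46 (SE 0.43, unadjusted p 0.302). Of the 25 genes, 4 were on the wider platelet list.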
